A study of Mus musculus with 15 samples.

Results

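Sorting nuclei by a fluorescent protein is meant to leave out every cell type that does not make it. The 35 genes described here mark the cells that a sort of parvalbumin neurons excludes: 9 mark excitatory neurons, 6 astrocytes, 5 oligodendrocytes, 2 oligodendrocyte precursors, 5 microglia, 5 the endothelium and pericytes, and 3 other interneurons. They were chosen by name, all 35 are listed in every count table, and they are 35 of the 46380 genes whose symbol occurs in both kinds of table. RNA-seq was run on RNA from sorted nuclei of the cerebral cortex of 15 adult mice, 1 cortex per library. All mice carried PvCre and ROSA-tomato-lox. The 4 Ctrl mice (Thra+/+) were untreated. The 4 Mut mice were littermates of genotype ThraAMI/+, an allele that makes a dominant negative thyroid hormone receptor after Cre recombination. The 3 PTU mice (Thra+/+, numbered 5 to 7) ate food with PTU, an inhibitor of thyroid hormone synthesis, for 2 weeks. The 4 PTU_TH mice (PTU+TH in the titles) had the same genotype and diet, and thyroid hormone was injected intraperitoneally 24 h before dissection. Cre was driven from the parvalbumin gene, so the sort takes nuclei by a reporter that stays on once it has been recombined, and not by the parvalbumin level at dissection. The comparison of markers asks how much RNA of the excluded types each library holds, and whether it differs between PTU_TH and PTU or between Mut and Ctrl.

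Parvalbumin neurons are fast-spiking inhibitory interneurons that make GABA with the enzymes encoded by Gad1 and Gad2 and load it into vesicles with the transporter encoded by Slc32a1. The cortex around them holds far more excitatory neurons, which load glutamate with Slc17a7, and glia and vessel cells whose nuclei or free RNA can come through a sort. Few markers are exclusive to 1 type: Cux2 and Reln are also made by some inhibitory neurons, and the Mbp locus gives neuronal transcripts besides the myelin ones. In RNA pooled from many nuclei, fewer cells of a type and less RNA per cell cannot be told apart.

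Depth was 12957838 to 32571175 counts per library. Checked against its markers, the labelled cell type was present in every library: 20 of 21 parvalbumin neuron genes had counts and together made up 10892 to 14924 CPM (counts per 1000000 counts of the library). The remaining gene, Cox6a2, was listed at 0 in all 15 libraries. Counts of 4 Y-linked genes were present in 8 libraries (Ctrl 2, Mut 1 to 3, PTU 6 and 7, PTU_TH 3 and 4) and at most 3.19 CPM in the other 7. The 2 kinds of table differ in their gene list, with PTU and PTU_TH in one set of libraries and Ctrl and Mut in the other. The share of counts in genes longer than 100 kb was 25.0% to 28.5% in the 4 PTU and PTU_TH libraries with Y-linked counts and 34.2% to 40.8% in the 3 without. It was 28.1% in Mut 2 and 30.2% to 40.6% in the 7 other libraries of Ctrl and Mut. Mitochondrially encoded genes, whose RNA is cytoplasmic, took 12.7 to 39.7 CPM.

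The excluded-cell markers were a small share of each library. All 35 together took 0.0325% to 0.0471% of the counts, that is 325 to 471 CPM, and their sum was 2.25% to 4.01% of the summed parvalbumin neuron genes. Per group this ratio was 2.78% ± 0.27 in Ctrl (SD, n = 4), 2.58% ± 0.39 in Mut (n = 4), 3.54% ± 0.36 in PTU (n = 3) and 3.49% ± 0.58 in PTU_TH (n = 4). The sum was uneven: Cux2 alone was 21.5% to 48.1% of the marker counts, Mbp 9.66% to 19.8%, Reln 7.46% to 13.7% and Slc17a7 4.08% to 13.5%. A floor of 3 counts, 0.0921 to 0.232 CPM depending on the library, was used as the limit of what a library can show. Of the 35 genes, 21 were above it in all 15 libraries, 12 were at or under it in some, and 2 were listed at 0 throughout.

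Those 2 are Gfap, the astrocyte intermediate filament (chromosome 11, 102887336 to 102900912, GRCm38), and P2ry12, a purinergic receptor of resting microglia (chromosome 3, 59216272 to 59262871). A count of 0 in all libraries cannot be read as absence of these RNAs. Genes that every neuron or most cells use were listed at 0 in all 15 libraries as well, among them Tubb3, Arf5 and Ankrd11, which were singled out after their values were seen. In all, 3725 of 21150 protein-coding genes (17.6%) were at 0 throughout. No exon base of Gfap and 0.353% of those of P2ry12 is shared with another gene of GENCODE M21. Overlap outside exons was not measured and the counting mode is not given. The cause of the zeros was not tested. Gfap and P2ry12 were therefore left out of every test between groups. In the split of libraries by Y-linked counts below they stay among the markers and count as overlapping.

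Per kilobase of exon, the scale on which genes can be set against each other, the markers spanned more than 3 orders of magnitude. The inhibitory genes gave the reference: the median level over 15 libraries was 184 CPM per kb for Gad1, 106 for Pvalb, 47.7 for Gad2 and 15.9 for Slc32a1. The highest excluded-cell marker was Cux2, a transcription factor of upper-layer neurons, at 12.6 CPM per kb. It was followed by the myelin protein gene Mbp at 5.37, the vesicular glutamate transporter gene Slc17a7 at 4.94, the myelin enzyme gene Cnp at 4.71 and Lamp5, a membrane protein gene of a neurogliaform class, at 4.16. These were the 5 members above the median of all 20096 genes with a median above 0, which was 2.90 CPM per kb. Slc17a7 was at 2.68% of Gad1 and 31.0% of Slc32a1. Next came Rorb at 1.77, Reln at 1.73, Slc1a2 at 1.45, Mog at 1.44 and Mobp at 1.40 CPM per kb, whose ranges over libraries overlapped. At the low end stood the endothelial receptor genes Flt1 (0.0735) and Kdr (0.0072) and the interneuron gene Ndnf (0.0195).

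**Figure D1:**
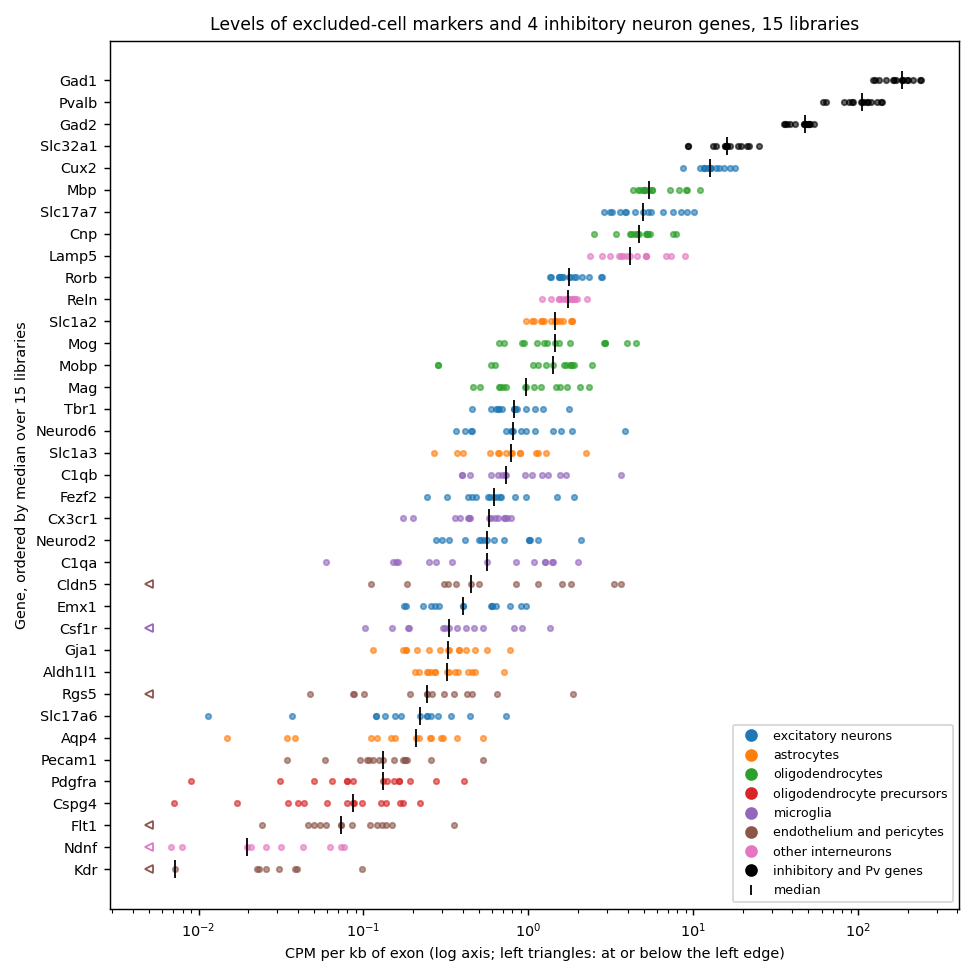
Level of each marker and of 4 inhibitory neuron genes (vertical axis, ordered by median) in CPM per kb of exon on a log axis; each point is 1 of 15 libraries, the black tick is the median, and left triangles mark values at or below the left edge. Gad1 and Pvalb stand at medians of 184 and 106, and the highest excluded-cell marker, Cux2, at 12.6.

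For these genes Mut 2 was most often the highest library of its set, and PTU_TH 1 and 2 most often the lowest of theirs. In the set of Ctrl and Mut, Mut 2 had the highest level of 15 of the 33 markers with counts above the floor, and was lowest, ties included, for 6. The other 7 libraries of the set were each highest for 1 to 5. In the set of PTU and PTU_TH, PTU_TH 1 was lowest for 15 of 33 and PTU_TH 2 for 12. How often each library is highest or lowest over all genes was not counted. Whether these counts are particular to the markers was therefore not tested. PTU_TH 1 and 2 lack Y-linked counts, as does PTU 5. Over the 7 libraries of that set, 16 of the 35 markers were higher in all 4 libraries with Y-linked counts than in the 3 without, and 1, Cux2, was lower. Among all 15088 genes with a mean of at least 10 counts the shares were 29.4% higher and 11.6% lower, so an order of this kind was common over the whole transcriptome. In the Ctrl and Mut set all 35 overlapped between libraries with and without Y-linked counts. Of genes with a mean of at least 10 counts in that set, 2.33% were higher with Y-linked counts and 1.28% lower, without overlap. What separates the libraries was not tested.

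**Figure D2:**
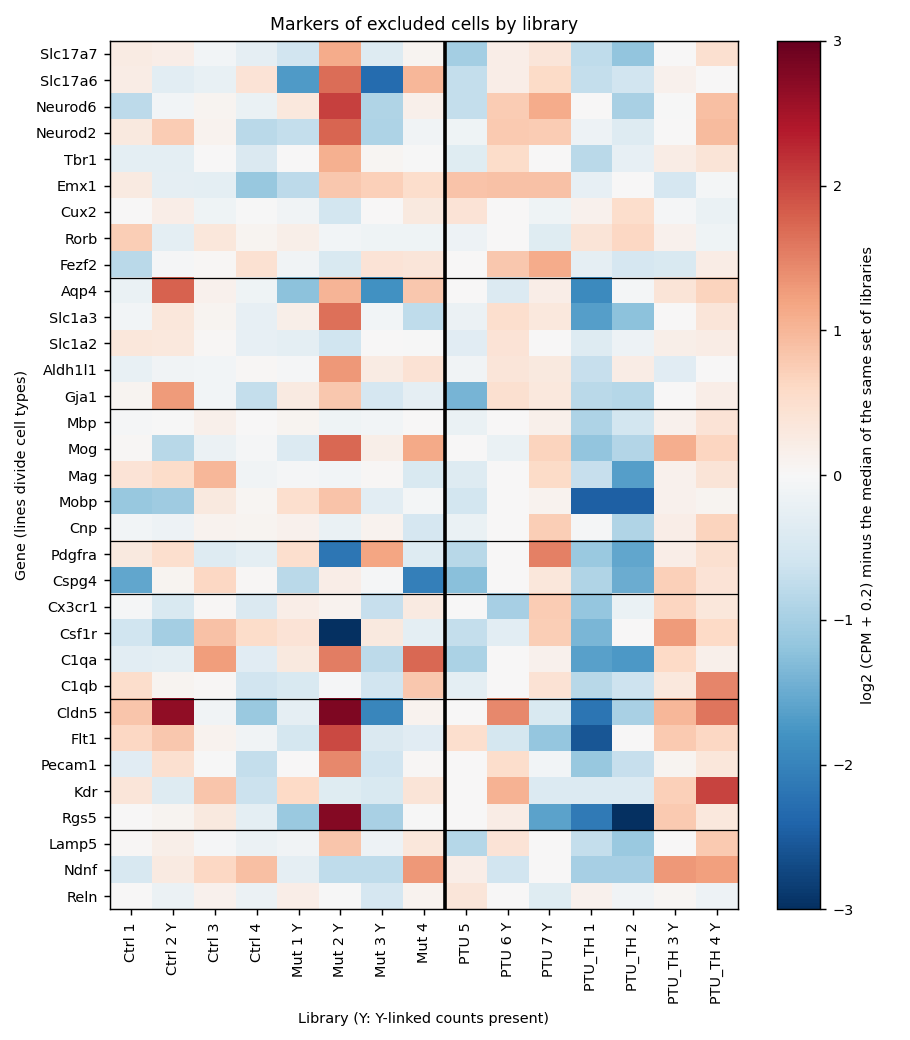
Each marker with counts above the floor (vertical axis, lines dividing the cell types) in each library (horizontal axis, Y where Y-linked counts are present), coloured by log2 (CPM + 0.2) minus the median of the same set of libraries; the thick line divides the sets. Mut 2 is highest for 15 of 33 genes in its set, and PTU_TH 1 and PTU_TH 2 are lowest for 15 and 12 in theirs. The same was not counted over all genes.

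Among the excitatory neuron markers, Slc17a7 (chromosome 7, 45163949 to 45176142) is the defining one of cortical glutamatergic neurons. It was at 29.9, 28.8, 23.9 and 20.9 CPM in Ctrl 1 to 4, at 17.0, 54.7, 19.3 and 26.7 in Mut 1 to 4, at 17.4, 40.6 and 45.7 in PTU 5 to 7, and at 20.98, 15.4, 35.4 and 49.3 in PTU_TH 1 to 4. The 5 highest values were thus Mut 2 and the 4 PTU and PTU_TH libraries with Y-linked counts, and all groups overlapped. Relative to Gad1 per kilobase it ranged from 1.80% in Ctrl 4 to 5.49% in Mut 2. Cux2 ran the other way: 127, 145, 116 and 127 CPM in Ctrl 1 to 4, 118, 86.9, 129 and 155 in Mut 1 to 4, 169, 127 and 117 in PTU 5 to 7, and 139, 182, 124 and 111 in PTU_TH 1 to 4. Mut 2 was its lowest library and PTU_TH 2 its highest, the library where Slc17a7 was lowest. The summed level of all 9 genes was 188 ± 13.3 CPM in Ctrl (SD, n = 4), 186 ± 20.4 in Mut, 207 ± 8.0 in PTU (n = 3) and 205 ± 20.9 in PTU_TH. This sum hides the spread among the other genes, because Cux2 was its largest part.

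Without Cux2 and Rorb, a choice made after their values were seen, the 7 remaining excitatory genes summed to 36.7 ± 4.62 CPM in Ctrl, 45.9 ± 27.5 in Mut, 51.7 ± 20.7 in PTU and 42.3 ± 19.2 in PTU_TH. The genes left out are also the excitatory markers longer than 100 kb, and the 7 kept are shorter. Mut 2 had 86.2 CPM and the 3 other Mut libraries 27.0 to 40.9. The genes of this group are the transcription factors Neurod2 and Neurod6 of maturing and adult excitatory neurons, Tbr1 and Fezf2 of deep layers, the pallial factor Emx1 and Slc17a6, the glutamate transporter gene most used below the cortex. In Mut 2, Neurod6 was at 8.28 CPM and at 0.890 to 2.35 in the 7 others of its set. Neurod2 was at 6.54 against 0.860 to 3.24, and Tbr1 at 9.67 against 3.27 to 4.70. Fezf2 did not share this pattern, with 0.985 CPM in Mut 2 and 0.736 to 2.05 in the others.

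**Figure D3:**
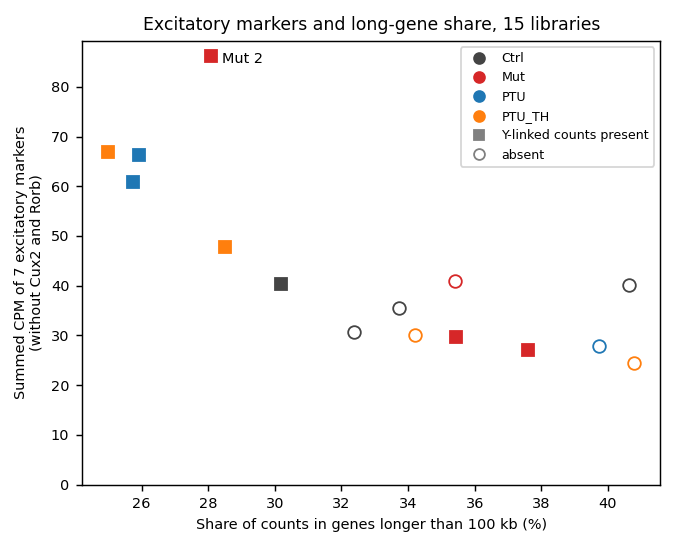
Summed CPM of the 7 excitatory markers other than Cux2 and Rorb (vertical axis) against the percent of counts in genes longer than 100 kb (horizontal axis), 1 point per library, with squares where Y-linked counts are present and open circles where they are absent. The 5 libraries with the lowest long-gene shares hold the 5 highest sums, Mut 2 the highest at 86.2 CPM. Cux2 and Rorb are longer than 100 kb and the 7 genes summed are shorter. A lower long-gene share leaves more of the counts to shorter genes, so the axes are not independent.

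Astrocyte markers were lower. Slc1a2 and Slc1a3, which encode the glutamate transporters that clear the synapse, had medians of 19.1 and 6.70 CPM, and Gja1, the gap junction protein gene, 3.35. Aqp4, the water channel of astrocyte endfeet, was at 0.0921 to 3.32 CPM and at or under the floor in 2 libraries. Aldh1l1, a folate enzyme gene used as a pan-astrocyte marker, was at 0.931 to 3.22 CPM, highest in Mut 2. Slc1a3 was at 19.2 CPM in Mut 2 and at 3.42 to 7.61 in the 7 others of its set, whereas Slc1a2 was at 12.6 there and at 15.6 to 24.0 in the others. The 2 transporter genes, both used as astrocyte markers, thus gave opposite orders for the same library. The summed level was 33.5 ± 7.99 CPM in Ctrl, 31.8 ± 7.28 in Mut, 34.6 ± 9.11 in PTU and 29.3 ± 9.11 in PTU_TH.

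Oligodendrocyte markers gave the largest sum after the excitatory genes, 74.9 ± 8.24 CPM in Ctrl, 76.9 ± 5.77 in Mut, 111 ± 20.6 in PTU and 97.8 ± 43.4 in PTU_TH. Mbp, which encodes a structural protein of compact myelin, made up most of it. It was at 41.9, 42.8, 47.8 and 43.0 CPM in Ctrl 1 to 4, at 45.5, 39.1, 40.3 and 43.3 in Mut 1 to 4, at 61.2, 69.9 and 77.3 in PTU 5 to 7, and at 36.7, 47.5, 76.2 and 93.4 in PTU_TH 1 to 4. All 8 libraries of Ctrl and Mut lay within 39.1 to 47.8 CPM, whereas the PTU_TH libraries fell into 2 low and 2 high ones. Mobp, another myelin protein gene, behaved likewise in PTU_TH, with 1.93 CPM in both libraries without Y-linked counts and 12.6 and 12.2 in those with them. Mag, a myelin adhesion protein gene, was at 3.87 and 1.88 against 6.95 and 8.42 CPM in the same libraries. Cnp was at 16.7 and 9.09 against 19.8 and 27.5.

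The 2 precursor markers were near the limit of detection. Pdgfra, the growth factor receptor gene of precursors, had a median of 1.31 CPM and Cspg4, the NG2 proteoglycan gene, 1.02. Their sum ran from 0.731 CPM in PTU_TH 2 to 6.06 in PTU 7. Pericytes also make Cspg4. Microglial genes were low too, with a summed level of 5.04 ± 1.54 CPM in Ctrl, 5.44 ± 1.43 in Mut, 7.83 ± 3.72 in PTU and 9.06 ± 5.67 in PTU_TH. Cx3cr1, the fractalkine receptor gene, had the highest median, 2.59 CPM. Csf1r, the growth factor receptor gene on which microglia depend, was listed at 0 in Mut 2 and reached 7.79 CPM in PTU_TH 3. C1qa and C1qb, which encode chains of complement C1q, had medians of 0.583 and 0.799 CPM. In Mut 2 the genes of these types did not move together. Pdgfra was at 0.0896 CPM there, or 2 counts, and Cspg4 at 1.16, inside the range of its set. Beside 0 for Csf1r, C1qa was at 1.12 CPM, behind Mut 4 only at 1.31. The microglial sum of Mut 2 was 4.79 CPM and the precursor sum 1.25, both inside the range of the 7 other libraries of its set.

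Endothelial and pericyte genes set Mut 2 apart most. Their sum was 21.9 CPM there, 1.90 to 3.88 in the 3 other Mut libraries and 2.60 to 9.54 in Ctrl. The pericyte gene Rgs5, a regulator of G-protein signalling, was at 0.399, 8.51, 0.461 and 1.10 CPM in Mut 1 to 4, and at 0.867 to 1.39 in Ctrl. Cldn5, the tight junction gene of the blood-brain barrier, was at 0.439, 5.19, 0 and 0.633 CPM in Mut 1 to 4, and at 1.19, 4.71, 0.518 and 0.158 in Ctrl 1 to 4. Ctrl 2 was thus the other library of its set with high Cldn5. The vascular growth factor receptor gene Flt1 was at 4.79 CPM in Mut 2 and at 0.678 to 2.02 in the other 7 libraries of the set. Pecam1, an endothelial adhesion protein gene, was at 3.31 CPM in Mut 2 and at 0.591 to 1.60 in the others. Kdr, the main vascular growth factor receptor gene, was above the floor in 6 of 15 libraries. It did not share the pattern, at 0.0448 CPM in Mut 2, under the floor. In PTU_TH 1, Cldn5, Flt1 and Kdr were all listed at 0, and the sum of the 5 genes was 0.430 CPM. At 13965520 counts that library had a floor of 0.215 CPM per gene.

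The 3 markers of other interneurons did not follow 1 pattern. Reln, the gene of a large secreted glycoprotein, was at 28.9 to 53.9 CPM and Lamp5 at 6.90 to 26.2. Lamp5 was highest in PTU_TH 4 and lowest in PTU_TH 2, and at 21.4 CPM in Mut 2 against 10.4 to 15.2 in the others of that set. Reln in Mut 2, at 40.8 CPM, lay inside the range of its set. Ndnf, a marker of neurogliaform cells, was at or under the floor in 8 of 15 libraries. The summed level was 51.8 ± 4.05 CPM in Ctrl, 54.9 ± 10.3 in Mut, 57.5 ± 8.45 in PTU and 56.4 ± 7.95 in PTU_TH.

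**Figure D4:**
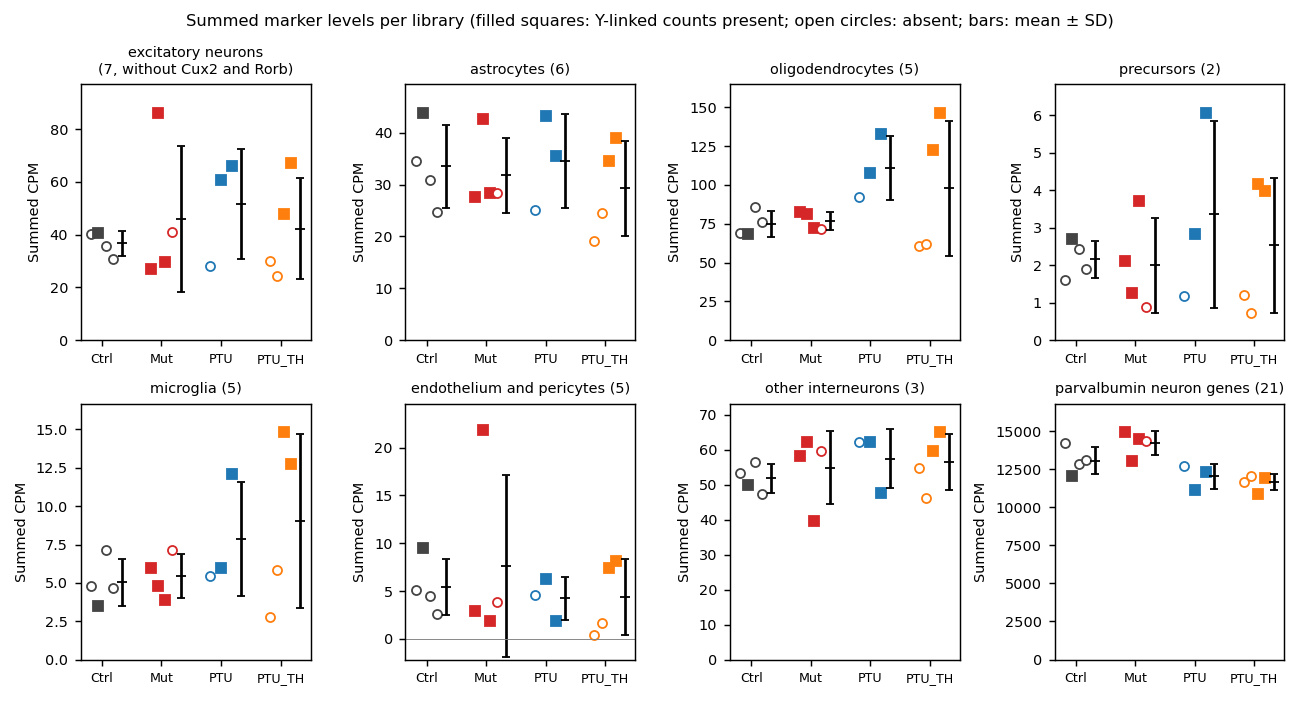
Summed CPM of the markers of each cell type, and of the parvalbumin neuron genes, per library in the 4 groups; filled squares have Y-linked counts, open circles do not, and bars give mean ± SD, which in the endothelial panel reaches below 0 for Mut. Mut 2 is the highest library of the endothelial panel at 21.9 CPM, and in 5 of the 7 excluded-cell panels the PTU and PTU_TH squares lie above the open circles of those groups. The excitatory panel, 1 of these 5, sums the 7 genes without Cux2 and Rorb; the sum of all 9 did not show this order.

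PTU_TH against PTU asks whether the hormone injection went with a change in residual markers. None of the 31 markers that could be tested passed an adjusted p under 0.05 with edgeR's quasi-likelihood test. Of the 15288 genes tested, 0.281% did. None passed with DESeq2, against 1.59% of all genes, but DESeq2 gave Emx1 no adjusted p. At an unadjusted p under 0.05 there were 2 of 31, against 7.37% of all genes, which is a share near the background. Both were lower, as were 3.47% of all genes. Of the 31, 22 had a log2 fold change below 0, or 71.0% against 50.5% of all genes, and the median was -0.12 against -0.0029. Without PTU_TH 1 the median was 0.05 and 15 of 31 lay below 0, so the direction of the list was lost without that library. The median stayed below 0 when any of the 6 other libraries was left out. It was near 0 without PTU_TH 2 (-0.04, 17 of 31 below 0), PTU 6 (-0.06) and PTU 7 (-0.07). It was further from 0 without PTU 5 (-0.26), PTU_TH 3 (-0.29) and PTU_TH 4 (-0.37).

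Emx1 had the smallest p. It reached the minimum level needed for a test only through the PTU libraries, the group where it was higher. It was at 1.29, 1.31 and 1.32 CPM in PTU 5 to 7 and at 0.501, 0.627, 0.386 and 0.591 in PTU_TH 1 to 4. The groups did not overlap, as for 3.82% of all genes in this direction, and PTU 5 lay above PTU_TH 1 and 2 as PTU 6 and 7 lay above PTU_TH 3 and 4. The log2 fold change was -1.24 ± 0.36 (SE), with an adjusted p of 0.365 in edgeR's test, from 5 to 20 counts per library. Fezf2 was at 2.52, 4.56 and 5.73 CPM in PTU 5 to 7 and at 2.08, 1.72, 1.77 and 2.95 in PTU_TH 1 to 4. PTU_TH 4 lay above PTU 5, so the groups overlapped. Its log2 fold change was -0.95 ± 0.30 with an adjusted p of 0.421. Slc17a7, the marker of the same cells with the most counts after Cux2 in most libraries, gave -0.16 ± 0.37. The interval of 2 SE either side ran from -0.91 to 0.59, so changes of either sign within it could not be told from 0.

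By cell type, 2 of 9 excitatory genes were above 0 and 7 below, with a median log2 fold change of -0.33. For astrocytes it was 1 above and 4 below (median -0.28), for oligodendrocytes 1 and 4 (-0.13) and for the endothelium and pericytes 1 and 3 (-0.08). Precursors, microglia and other interneurons were split evenly. With sex as a covariate 3 of 5 astrocyte genes lay above 0, and their median was 0.0011. The endothelial and pericyte median was 0.24 without PTU 6, 0.29 without PTU_TH 1 and 0.30 without PTU_TH 2. The excitatory median stayed below 0 without each library and was nearest to it, -0.08, without PTU 7. Mbp gave -0.11 ± 0.25, and its 4 PTU_TH values lay on both sides of the 3 PTU values. Within the libraries with Y-linked counts, the 5 oligodendrocyte genes summed to 108 and 133 CPM in PTU and to 122 and 146 in PTU_TH. In those without, they summed to 91.9 in PTU 5 and to 60.4 and 62.0 in PTU_TH, so the order of the groups differed between the classes. Rgs5 and Cldn5 had standard errors of 1.06 and 1.00, the widest in the list. Of the reference genes, Pvalb was at 133 ± 12.7 CPM in PTU_TH and 99.2 ± 8.98 in PTU (adjusted p = 0.277 in edgeR's test), while Gad1 and Gad2 overlapped between the groups.

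Mut against Ctrl asks the same of the receptor mutation. None of the 30 markers tested passed an adjusted p under 0.05 in edgeR's test, against 0.348% of 16949 genes. None passed with DESeq2, against 2.11% of all genes. At an unadjusted p under 0.05 there were 2 of 30, against 8.74% of all genes. Both are myelin genes and they lay in opposite directions. Mog, a myelin surface protein gene, was at 2.21, 1.14, 1.91 and 2.13 CPM in Ctrl 1 to 4 and at 1.60, 7.61, 2.46 and 4.98 in Mut 1 to 4. Mut 1 lay inside the Ctrl range, and the log2 fold change was 1.13 ± 0.46 with an adjusted p of 0.488 in edgeR's test. Mag was at 3.97, 4.41, 6.02 and 2.72 CPM in Ctrl 1 to 4 and at 2.87, 2.73, 2.98 and 2.07 in Mut 1 to 4. Ctrl 4 lay inside the Mut range, and the log2 fold change was -0.69 ± 0.31 with an adjusted p of 0.547. Mbp, with more counts than either, gave -0.07 ± 0.12 and an interval of -0.32 to 0.18.

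Of the 30 markers, 18 were above 0 and 12 below, and the median log2 fold change was 0.16 against 0.01 over all genes. The share above 0 over all genes was 52.3%. Without Mut 2 the counts were 13 and 17 and the median -0.02. With the replicate number as a block they were also 13 and 17, with a median of -0.08. The largest positive values after Mog belonged to Rgs5 (1.12 ± 0.82) and Neurod6 (1.07 ± 0.56). Without Mut 2 they were -0.79 and 0.20. For the endothelium and pericytes 3 of 4 genes were above 0 with all libraries and none without Mut 2, where the median was -0.89. With all libraries 7 of 9 excitatory genes were above 0, and 5 of 9 without Mut 2. The endothelial and pericyte median of 0.37 became -0.12 with the block, -0.04 with sex as a covariate and 0.99 without Ctrl 2, and with the block 5 of 9 excitatory genes were above 0. The groups overlapped for all 30, where 5.89% of all genes had no overlap. Among the libraries without Y-linked counts, Mut 4 had 3.88 CPM of the summed endothelial and pericyte genes and the 3 Ctrl libraries 2.60 to 5.07. In the reference genes, Pvalb was at 77.9 ± 15.2 CPM in Mut and 119 ± 11.5 in Ctrl, without overlap (log2 fold change -0.63 ± 0.13, adjusted p = 0.0780 in edgeR's test).

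**Figure D5:**
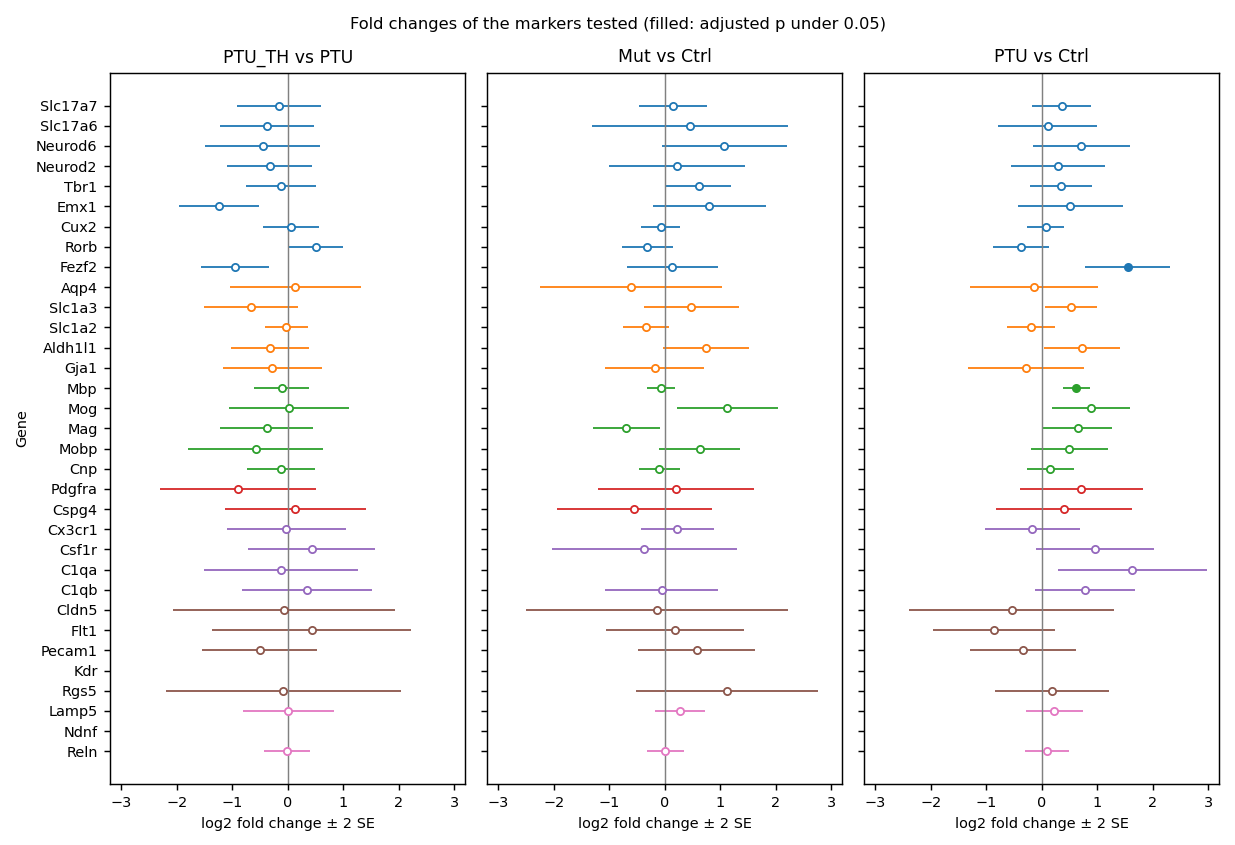
Log2 fold change ± 2 SE of each marker tested in the 3 comparisons (horizontal axes), coloured by cell type and filled where the adjusted p is under 0.05. Only Fezf2 and Mbp, in PTU against Ctrl, are filled, and the widest bars belong to the endothelial and pericyte genes.

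PTU against Ctrl crosses the 2 sets of libraries, so the set and the treatment cannot be told apart. It shares its Ctrl libraries with Mut against Ctrl and its PTU libraries with PTU_TH against PTU. In edgeR's test 2 of 31 markers passed an adjusted p under 0.05, against 17% of all 16496 genes. At an unadjusted p under 0.05 there were 5, against 28.8%. Both were higher in PTU, as were 4.38% of all genes. Mbp rose from 43.9 ± 2.64 CPM in Ctrl to 69.4 ± 8.07 in PTU, a log2 fold change of 0.62 ± 0.12 with an adjusted p of 0.00324. All 3 PTU values lay above all 4 Ctrl values, as for 9.01% of all genes in this direction, in libraries with and without Y-linked counts alike. Fezf2 rose from 1.41 ± 0.54 to 4.27 ± 1.62 CPM, a log2 fold change of 1.55 ± 0.38 with an adjusted p of 0.0155. That call was lost without PTU 6, without PTU 7, and with sex as a covariate.

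The 4 other oligodendrocyte genes lay above 0 in PTU against Ctrl as well, with log2 fold changes of 0.15 for Cnp, 0.50 for Mobp, 0.64 for Mag and 0.89 for Mog, and none passed. Slc17a7 gave 0.36 ± 0.26 (adjusted p = 0.415 in edgeR's test). Without PTU 5, the PTU library lacking Y-linked counts, it gave 0.64 with an adjusted p of 0.0286. C1qa gave 1.63 ± 0.67 (adjusted p = 0.131), and without Ctrl 3 it gave 2.67 with an adjusted p of 0.00958. It reached the minimum level needed for a test mainly through the PTU libraries, the group where it was higher. Flt1 gave -0.86 ± 0.55 (adjusted p = 0.340), and without PTU 5 -1.72 with an adjusted p of 0.0499. Over the list, 23 of 31 markers were above 0 with a median of 0.34, against 48.6% of all genes and a median of -0.01. With sex as a covariate 19 of 31 were above 0, with a median of 0.12. The median was 0.22 without PTU 6 and without PTU 7. The long-gene share was 25.7%, 25.9% and 39.7% in the PTU libraries and 30.2% to 40.6% in Ctrl. Its part in these values was not tested.

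Beside the members, 88 further genes known from the same cell types were listed. In PTU_TH against PTU none of the 64 of them that could be tested passed in edgeR's test, against 0.281% of all genes. Of these 64, 5 had an unadjusted p under 0.05, 2 higher and 3 lower, against 7.37% of all genes. That is a share near the background. DESeq2 called 1, Enpp2, against 1.59% of all genes. The gene with the smallest p was Rbp4 among the excitatory neuron genes (log2 fold change -0.75), Fgfr3 among those of astrocytes (-1.22) and Enpp2 among those of oligodendrocytes (0.52). It was Ptprz1 among precursor genes (-0.21), Laptm5 among microglial genes (0.80), Slco1a4 among vessel genes (0.94) and Crhbp among other interneuron genes (-0.85). Their adjusted p-values in edgeR's test ran from 0.179, of Enpp2, to 0.973. In Mut against Ctrl 1 of 62 passed in edgeR's test, against 0.348% of all genes. In DESeq2 9 of 60 with an adjusted p passed, against 2.11% of all genes: Cck, Crhbp, Enpp2, Ptprz1, Rbp4, Sox9, Trem2, Tspan2 and Ugt8a. The gene that passed in both was Rbp4, the retinol carrier gene marking layer 5 neurons, which rose from 16.9 ± 2.08 to 53.1 ± 17.9 CPM (log2 fold change 1.62 ± 0.20, adjusted p = 0.00708 in edgeR's test), without overlap of the groups. None of the 9 excitatory members passed. In the other lists the smallest p belonged to Sox9 of astrocytes (log2 fold change 1.75), Tspan2 of oligodendrocytes (0.65), Ptprz1 of precursors (0.68), Trem2 of microglia (-1.62), Acta2 of smooth muscle (1.20) and Crhbp of other interneurons (0.61). Their adjusted p-values in edgeR's test ran from 0.0650, of Tspan2, to 0.708.

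In PTU against Ctrl 4 of 68 further genes passed in edgeR's test, against 17% of all genes, and 6 of 67 in DESeq2, against 20% of all genes. Nrn1, a neuritin gene of excitatory neurons, fell by 1.64 on the log2 scale (adjusted p = 0.0169), and Adarb2, an interneuron gene, fell by 1.14 (adjusted p = 0.0380). Esam, an endothelial adhesion gene, rose by 1.08 (adjusted p = 0.0279) and Acta2, the smooth muscle actin gene, by 1.56 (adjusted p = 0.0315). None of the 4 endothelial and pericyte members tested passed. In Mut 2, Slco1a4 was at 10.3 CPM and Ly6c1 at 10.2, the highest of all 15 libraries for these endothelial transporter and surface protein genes.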

How the data were processed

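Nuclear RNA was amplified by SMART-Seq v4 and tagged with Nextera XT before NextSeq500 sequencing, per the labels' protocols. What the authors deposited are raw counts per gene. The submitters' processing notes name Bowtie2 2.5.3, HTSeq and mm10 (GRCm38). Annotation, counting mode, strand setting and the handling of multiply aligned reads: not given in the sources used here. There were no molecular identifiers, so the floor of 3 counts covers counting error only, and overlapping or antisense genes are not separable.

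Tables held 55341 genes (PTU, PTU_TH) or 48321 (Ctrl, Mut), with 46380 shared symbols. Levels are CPM of library totals, and per kilobase of union exon from GENCODE M21. Each comparison used its own libraries in edgeR 4.0.16 (R 4.3.3): TMM scaling, filterByExpr (minimum count 10), robust quasi-likelihood tests, Benjamini-Hochberg adjustment over all genes, and a call at an adjusted p under 0.05. The scripts were tested on simulated data. Alternatives were other scalings, DESeq2 1.42.0, other filters, all groups in 1 fit, sex (Y-linked genes over 50 CPM) as a covariate, the replicate number as a block, and leaving out each library. Titles number mice, and p-values measure the spread between these libraries. Named genes are all members, 4 reference genes, and of each further list the called genes or the gene with the smallest p. Genes named beyond this rule were not chosen in advance. The members and lists were chosen with earlier results of these data known.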

Additional observations from a re-analysis of the deposited data

Results flagged for a closer look

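In groups of 4 libraries, 99 sets of marker values and 21 cell type sums were examined for a library far from the 3 others, with a gap to its neighbour over Dixon's 95% critical share of the range. Chance gives about 1 in 20, or 6 of 120, and 12 were found. Of these, 7 were high values of Mut 2. They were Neurod2 at 6.54 CPM (next highest Mut library 1.69), Tbr1 at 9.67 (4.70), Cldn5 at 5.19 (0.633), Flt1 at 4.79 (0.801), Rgs5 at 8.51 (1.10), the summed astrocyte markers at 42.7 (28.4) and the summed endothelial and pericyte markers at 21.9 (3.88). The genes and sums share 1 library, so they are not separate observations.

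The other 5 came from different libraries. Rorb was at 20.9 CPM in Mut 1 and at 17.3 in the next Mut library. Aqp4 was at 3.32 CPM in Ctrl 2, the Ctrl library with the most Cldn5, and at 0.916 in the next Ctrl library. C1qa was at 0.876 CPM in Ctrl 3 and at 0.168 in the next. Ndnf was at 0.633 CPM in Mut 4 and at 0.0798, under the floor, in the next. The summed excitatory markers were at 237 CPM in PTU_TH 2 and at 196 in the next PTU_TH library, where Cux2 made up most of the sum.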

How the results depend on the processing

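No marker was called in PTU_TH against PTU or in Mut against Ctrl under any alternative run, and leaving out 1 library gave 0 to 0 in both. DESeq2 gave Emx1 no adjusted p. Counts at an unadjusted p under 0.05 moved: in PTU_TH against PTU from 2 to 4 with sex as a covariate (1 to 4 without 1 library), and in Mut against Ctrl from 2 to 1 with all 4 groups in 1 fit, with sex as a covariate, and with the replicate block (1 to 3 without 1 library). In PTU against Ctrl 2 calls became 1 with sex as a covariate and 1 to 4 without 1 library, and 5 markers at an unadjusted p under 0.05 became 2 with all 4 groups in 1 fit and 2 to 10 without 1 library. Fezf2 there gave 1.33 with sex as a covariate, 1.5 without PTU 6 and 1.31 without PTU 7, with adjusted p-values of 0.0670, 0.0594 and 0.0859. Mbp was called in every setting, at 0.57 to 0.66. No marker called in any setting changed sign. The 133 values of cell type sums under the other settings stayed within 1 SD of the group mean. Where 1 library was left out this was fixed in advance, because leaving it out cannot move a group mean by 1 SD. It therefore says nothing on how far the sums depend on 1 library. Without Mut 2 the endothelial and pericyte mean of Mut went from 7.64 to 2.90 CPM. The sums of 7 excitatory genes, added after the data were seen, moved to 36.7, 45.9, 51.7 and 42.3 CPM because Cux2 and Rorb were left out.

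Over all genes, calls in PTU_TH against PTU were 43, but 243 with DESeq2, 335 with sex as a covariate and 5 to 29 without 1 library. In Mut against Ctrl they were 59, but 358 with DESeq2, 196 with all 4 groups in 1 fit, 90 at 1 CPM, 31 with sex as a covariate and 11 to 103 without 1 library. The cause was not tested. Replicate numbers shared by Ctrl and Mut are not said to mark a pair and were not taken as one. The same-number correlations were 0.116, 0.202, -0.021 and 0.0849, and the other pairs ran from -0.155 to 0.132. Whether the numbers mark pairs cannot be told from these values. Mut 1 and Mut 2 correlated best with their own number, Mut 3 with Ctrl 1 and Mut 4 with Ctrl 3. With the replicate block, 0 markers were called in Mut against Ctrl, 1 had an unadjusted p under 0.05, and 82 genes were called. Floors of 0.0921 to 0.232 CPM leave low endothelial, precursor and microglial genes with wide intervals.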

Other observations

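Outside the comparisons, the further genes of other interneurons were far from absent in libraries sorted for parvalbumin neurons. Npy, a neuropeptide gene, had a median of 49.2 CPM and ranged from 17.0 to 111, and Crhbp, the gene of a peptide-binding protein of somatostatin neurons, had a median of 59.4 CPM and reached 115. Sst and Vip, which define the other main interneuron classes, had medians of 6.10 and 5.02 CPM. All 4, like Cck, Id2 and Adarb2, were highest in Mut 2, where Sst was at 21.8 and Vip at 13.4 CPM. The rest of this list, Cnr1, Prox1, Calb2, Nr2f2, Htr3a, Tac2, Sncg and Chodl, peaked in other libraries. How often Mut 2 is highest over all genes was not counted, so whether this is particular to these genes was not tested. Htr3a and Calb2 were at or under the floor in 10 and 9 of 15 libraries.

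Xist was listed at 0 in all 15 libraries, also in the 7 without Y-linked counts. Bcan, a perineuronal net proteoglycan gene listed under precursors, had a median of 701 CPM, and Tmem119, a gene restricted to microglia in the brain, 0.906.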
